A study of Homo sapiens with 30 samples.

Results

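T58A and S62A MYCN, each carrying 1 alanine substitution in the phosphorylation box of the protein, were set against each other in SH-EP cells treated with DMSO. The comparison used the 3 libraries labelled T58A with DMSO and the 3 labelled S62A with DMSO, chosen by line and treatment from the labels, which are 6 of the 30 libraries in the series. SH-EP is an established human neuroblastoma cell line of mesenchymal character without MYCN amplification. Both groups shared the retroviral MYCN transgene, driven by an exogenous promoter, and 6 hours in DMSO, the vehicle of the CDK2 and CDK9 inhibitor CYC065. Parallel groups of 3 libraries held the parental SH-EP cells, SH-EP with WT MYCN and SH-EP with the T58A S62A double mutant in DMSO, and all 5 lines after 6 hours of 1 µM CYC065. Each substitution was represented by a single stable line, whether a pool or a clone is not given in the sources used here, and differences between lines of independent origin cannot be told apart from differences between the substitutions. Nothing in the labels says that the 3 libraries of a line came from separate cultures on separate days. The p-values therefore measure only the spread between libraries of the same group. For limma that spread was estimated over all 30 libraries in 10 groups, other lines and CYC065 included.

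MYCN is a transcription factor of the MYC family that pairs with MAX and binds E-box sequences. Phosphorylation of serine 62 stabilises MYC proteins and primes threonine 58 for phosphorylation by GSK3, after which serine 62 is dephosphorylated by PP2A and the ubiquitin ligase FBXW7 binds phosphorylated threonine 58 and directs the protein to the proteasome. An alanine at position 58 removes the site that FBXW7 reads, and an alanine at position 62 removes the priming site. In neuroblastoma, high MYCN marks aggressive disease, and cells occupy adrenergic or mesenchymal states held by different sets of transcription factors.

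The stretch of the MYCN coding sequence that holds both residues is shown because the 2 lines differ there. It runs from codon 54 to codon 66 in exon 2, at chr2:16082346-16082384 on the plus strand of GRCh37, with codon 58 (ACG, threonine) and codon 62 (TCG, serine) in capitals. It is the reference sequence, and the mutant transgenes themselves were not read here.
MYCN codons: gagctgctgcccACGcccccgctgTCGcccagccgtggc

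The transcript level of each of 26228 genes was given in FPKM (fragments scaled to transcript length and to the mapped reads of the library). Depth was not given, and an estimate from rarely detected genes put the 6 libraries at 0.5 to 0.879 of the deepest of the 30. Pearson correlations of log2 levels over genes tested were 0.925 to 0.949 within a line and 0.895 to 0.913 between T58A and S62A libraries. The spike-in RNA, added by cell number, took 5.59, 3.48 and 3.72% of the FPKM in the T58A libraries and 9.27, 8.07 and 9.36% in the S62A libraries. The median log2 level of the 55 spike-ins used was 1.00 higher in S62A than in T58A (exact permutation test, two-sided, p = 0.1, the smallest p that 3 against 3 libraries allow). The deposited FPKM were not scaled to the spike-ins. With such scaling the median gene was 0.98 higher in T58A on the log2 scale, so every difference below is relative to the bulk of the transcriptome, a gene lower in T58A by less than about that amount takes a positive value per cell, and one lower by little more comes near 0. The part of RNA content per cell, of cell counting and of spike-in addition in that shift was not tested.

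The cells carried the markers of mesenchymal neuroblastoma. VIM, an intermediate filament protein, stood at 1474 ± 17.8 FPKM in T58A and 1518 ± 33.5 in S62A (SD, n = 3), a log2 difference of -0.04 that was not past the threshold and became 0.96 with spike-in scaling. PRRX1, a homeobox factor of the mesenchymal state, was at 88.9 ± 5.80 and 56.3 ± 0.811 FPKM. The summed level of 6 mesenchymal markers, most of it VIM, was 1809 to 1845 FPKM in T58A and 1867 to 1932 in S62A. SNAI2, TWIST1 and FN1 went with PRRX1, averaging 11.4, 26.6 and 52.1 FPKM in T58A and 7.43, 20.9 and 36.1 in S62A. CD44 had the opposite order, averaging 175 FPKM in T58A and 252 in S62A. The summed level of 7 adrenergic markers was 84.8 to 92.3 FPKM in T58A and 53.6 to 57.8 in S62A. Of these, HAND2 averaged 84.5 FPKM in T58A and 46.1 in S62A, and GATA3 averaged 3.86 and 9.27. PHOX2A, DBH and CHGA were listed at 0 in all 6 libraries. SOX10, CD3E, CDH1 and KRT5, markers of Schwann cells, T cells and epithelium, were also listed at 0 in 6 of 6. CD68, a lysosomal protein on the leukocyte list, was at 3.38 ± 0.778 FPKM in T58A and 6.51 ± 0.683 in S62A (log2 -0.94). With spike-in scaling CD68 was at 0.04, where it did not pass. PTPRC, the pan-leukocyte marker, reached at most 0.0344 FPKM.

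MYCN itself was higher in the T58A line. The T58A libraries held 9.84, 8.44 and 7.27 FPKM of MYCN and the S62A libraries 5.08, 6.59 and 5.51. The 2 ranges did not overlap, with means of 8.52 ± 1.29 and 5.72 ± 0.778 FPKM. The log2 difference was 0.56 (SE 0.167, limma adjusted p = 0.0116), a 1.48-fold higher level, and an exact permutation test of the single gene gave p = 0.1, its smallest possible value. The call rested on single libraries: without the T58A library at 9.84 FPKM the difference was 0.45 (limma adjusted p = 0.0716), and without the S62A library at 5.08 FPKM it was 0.48 (limma adjusted p = 0.0609). The means of both mutants lay below those of WT MYCN (12.9 ± 1.09 FPKM) and the double mutant (13.5 ± 3.83). A double mutant library at 9.06 FPKM lay below the T58A library at 9.84 FPKM. Parental SH-EP libraries were listed at 0. These values are of the transcript, and protein was not measured here.

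Endogenous MYC, the paralogue that MYCN-driven tumours often silence, had the opposite order. MYC was at 0.468, 0.457 and 0.414 FPKM in T58A and at 1.85, 1.01 and 1.93 FPKM in S62A. All 3 S62A libraries were above all 3 T58A libraries, at a level that was low in both lines and below the 4.94 FPKM of parental SH-EP. The log2 difference was -1.59 (SE 0.173, limma adjusted p = 1.26e-07). It was -0.71 with spike-in scaling and -0.82 with a pseudocount of 1. The WT line (1.04 FPKM) lay between the mutants, and the double mutant (0.502 FPKM) lay next to T58A.

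**Figure D1:**
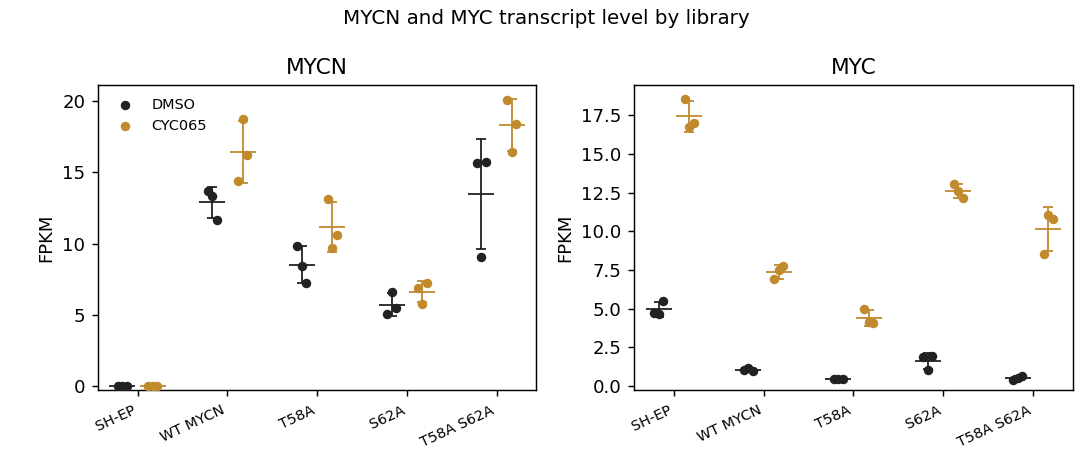
MYCN (left) and MYC (right) in FPKM on a linear axis for the 5 SH-EP lines, with black points for DMSO and ochre points for CYC065; each point is 1 library, and the bars give the mean and SD of 3. In DMSO the T58A libraries lie above the S62A libraries for MYCN (means 8.52 and 5.72) and below them for MYC (0.446 and 1.60).

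Across the transcriptome the lines differed widely, mostly by small amounts. Of 11575 genes that averaged 1 FPKM or more across all 30 libraries, 3802 (32.8%) passed an adjusted p of 0.05 (limma on log2(FPKM + 0.1), Benjamini-Hochberg), 1954 higher in T58A (16.9%) and 1848 lower (16.0%). With spike-in scaling 10228 passed, of which 99.5% were higher in T58A against 51.4% as deposited, and 46 of the 1848 stayed lower. The median size was 0.48 on the log2 scale for genes higher in T58A and 0.39 for genes lower. A change of at least 1.5-fold was seen in 1200 of them, at least 2-fold in 444, and at least 8-fold in 53, of which 41 were higher in T58A and 12 lower. The FPKM ranges of the 3 and 3 libraries did not overlap for 5393 genes (46.6%). Small RNA and LOC symbols made up 39 of the 3802 and 13 of those beyond 8-fold; as short or poorly annotated transcripts in a poly(A) library they are not named below.

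**Figure D2:**
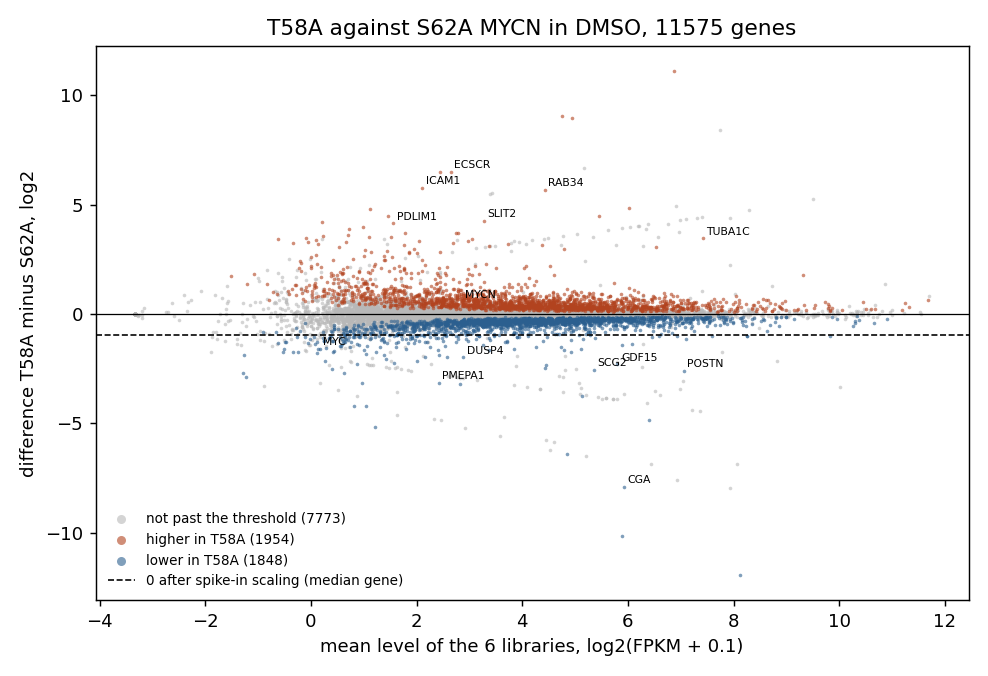
Each of the 11575 genes by its mean log2(FPKM + 0.1) level over the 6 libraries (horizontal) and its log2 difference, T58A minus S62A (vertical), with genes past the threshold in red (1954 higher in T58A) and blue (1848 lower). ECSCR and ICAM1 stand high above 0 and CGA far below, and the dashed line marks where the median shift of 0.98 under spike-in scaling would place 0, so that blue points above it take positive values.

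The genes with the largest differences toward T58A are given first. ECSCR, an endothelial cell-surface protein, was at 11.4, 11.2 and 14.1 FPKM in T58A and at 0.151, 0 and 0 in S62A. ICAM1, the adhesion receptor for leukocyte integrins, was at 7.97, 7.79 and 9.38 FPKM in T58A and at 0.0268, 0.0448 and 0.106 in S62A. SLIT2, the secreted guidance ligand of ROBO receptors, was at 18.1, 17.7 and 19.1 FPKM in T58A and at 0.873, 0.902 and 0.795 in S62A. In each of the 3 genes the 2 lines were far apart and the libraries of a line close together. SLIT2 was at 8.44 FPKM in WT, 8.50 in the double mutant and 8.74 in parental SH-EP, well above S62A and below T58A. ECSCR was at 5.97, 1.00 and 8.06 FPKM in the same lines, and ICAM1 at 1.20, 0.829 and 0.0764. The log2 differences were 6.50 for ECSCR (SE 0.479), 5.76 for ICAM1 (SE 0.292) and 4.27 for SLIT2 (SE 0.0706), with limma adjusted p of 1.63e-10, 2.85e-13 and 6.40e-23. Since S62A libraries were at or near 0 for ECSCR and ICAM1, the sizes of those 2 depend on the pseudocount.

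RAB34, a small GTPase of the Golgi and the primary cilium, averaged 41.8 ± 3.49 FPKM in T58A and 0.862 ± 0.556 in S62A (log2 5.68). PDLIM1, an actin-associated PDZ and LIM protein, differed by 4.14, and LCP1, the actin-bundling L-plastin, by 3.71. SPARCL1 and EMILIN2, both matrix glycoproteins, differed by 3.71 and 3.50. CSPG4, the NG2 proteoglycan of pericytes and glial precursors, differed by 3.34, RCOR2, a corepressor of the LSD1 complex, by 3.43, and TMEM119, a transmembrane protein, by 3.71. TUBA1C, an alpha-tubulin, was at 313 ± 3.50 against 28.6 ± 4.45 FPKM (log2 3.46). TUBA1C shares long stretches of near-identical sequence with TUBA1A and TUBA1B, which were at 35.9 to 38.1 and 743.9 to 746.5 FPKM in T58A and 22.1 to 23.2 and 719.9 to 762.5 in S62A, so how reads were divided among the 3 genes is uncertain.

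Among genes lower in T58A, CGA, the common alpha subunit of glycoprotein hormones, stood apart. It was at 1.06, 1.03 and 0 FPKM in T58A and at 113, 131 and 117 FPKM in S62A, with 24.1 in WT, 0 in the double mutant and 56.7 in parental SH-EP. The log2 difference was -7.89 (SE 0.628, limma adjusted p = 6.39e-10), and it remained -7.23 with spike-in scaling. POSTN, the matrix protein periostin, was at 38.0, 34.0 and 40.6 FPKM in T58A and at 232, 242 and 212 in S62A (log2 -2.61). SCG2, a secretogranin of dense-core vesicles, was at 11.5 to 12.5 FPKM in T58A and at 67.5 to 73.2 in S62A (log2 -2.54).

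TGFA, a ligand of the EGF receptor, averaged 6.46 ± 0.374 FPKM in T58A and 36.7 ± 0.721 in S62A (log2 -2.49). DUSP4, a nuclear phosphatase of ERK, averaged 2.90 ± 0.357 and 11.7 ± 0.935 FPKM (log2 -1.98). PMEPA1, a TGF-beta-induced inhibitor of SMAD signalling, differed by -3.13, and MAGEA11, a cancer-testis antigen on the X chromosome, by -3.22. ALDH1A1, a retinal dehydrogenase, differed by -2.33, and EPHB6, an ephrin receptor without kinase activity, by -2.16. ZNF626, a zinc finger protein, and TMEM59L, a membrane protein of the brain, differed by -1.98 and -1.97.

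Gene groups moved unequally, and each is read against the 16.9% higher and 16.0% lower of all genes. NF-kB cytokines and feedback genes had the highest median of the lists with at least 8 genes tested, 0.70, against 0 over all genes tested. Of 18 tested members, 10 were higher in T58A and 2 lower. BIRC3, an inhibitor of apoptosis, was at 1.94, 1.79 and 2.52 FPKM in T58A and at 0.511, 0.690 and 0.415 in S62A. Its log2 difference was 1.78 (SE 0.208, limma adjusted p = 3.87e-07). CXCL8, a neutrophil chemokine, NFKBIA, the inhibitor IkB-alpha, NFKB1, the precursor of p50, and TNFAIP3, the feedback ubiquitin editor A20, were singled out after their values were seen. They differed by 0.97, 0.84, 0.73 and 1.10, and their ranges did not overlap. The 2 members lower in T58A were PTGS2, the prostaglandin synthase COX-2, at 0.657 against 1.49 FPKM (log2 -1.08, and -0.17 with spike-in scaling, where it did not pass), and CSF2. CSF2, the cytokine GM-CSF, was under 1 FPKM in all 6 libraries (log2 -1.86, limma adjusted p = 0.0316). Leaving out either of 2 T58A or either of 2 S62A libraries ended the CSF2 call, with limma adjusted p up to 0.158.

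The 250 bases before the start of 2 NF-kB list members are shown as examples of the windows searched for motifs. They are from RefSeq on GRCh38.p14, at chr11:102317234-102317483 for BIRC3 and chr6:137867009-137867258 for TNFAIP3, both on the plus strand, with matches to the NF-kB consensus, on either strand, in capitals.
BIRC3: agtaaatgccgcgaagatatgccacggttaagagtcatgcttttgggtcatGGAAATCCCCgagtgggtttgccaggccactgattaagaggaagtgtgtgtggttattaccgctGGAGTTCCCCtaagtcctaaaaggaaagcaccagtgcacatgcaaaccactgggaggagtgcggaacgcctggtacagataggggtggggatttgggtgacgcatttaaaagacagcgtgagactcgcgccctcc
TNFAIP3: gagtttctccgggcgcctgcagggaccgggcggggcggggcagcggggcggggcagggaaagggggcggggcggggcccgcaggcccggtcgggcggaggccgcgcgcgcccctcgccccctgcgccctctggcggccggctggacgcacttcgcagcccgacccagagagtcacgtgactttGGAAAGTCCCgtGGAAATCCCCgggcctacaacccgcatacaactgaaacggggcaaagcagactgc

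The consensus was present in the promoter windows of 7 of the 13 NF-kB list members that had a single window (53.8%), against 803 of 6502 genes (12.4%). Of those 7 members, 5 were higher in T58A and 0 lower. Over all genes with a window, it was present in 13.3% of those higher in T58A, 12.3% of those lower and 12.1% of those not past the threshold. A match describes the letters and not binding.

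Targets of p53 leaned the other way on the deposited scale. Of 26 tested members, 15 were lower in T58A and the 11 others did not pass, with a median of -0.36, which became 0.62 with spike-in scaling, where 18 were higher and 1 lower. GDF15, a stress-induced cytokine, was at 19.6, 18.3 and 18.2 FPKM in T58A and at 91.5, 85.9 and 100.1 in S62A. The GDF15 difference was -2.30 (SE 0.0975, limma adjusted p = 7.00e-15) and stayed negative, at -1.30, with spike-in scaling. CDKN1A, the cell cycle inhibitor p21, was at 54.5, 53.1 and 51.8 FPKM in T58A and at 85.5, 87.1 and 88.5 in S62A. Its difference was -0.71 as deposited and 0.29 with spike-in scaling, where it did not pass. DDB2, a sensor of ultraviolet damage, and FAS, a death receptor, differed by -0.81 and -0.75. With spike-in scaling they were at 0.19 and 0.24, where neither passed.

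**Figure D3:**
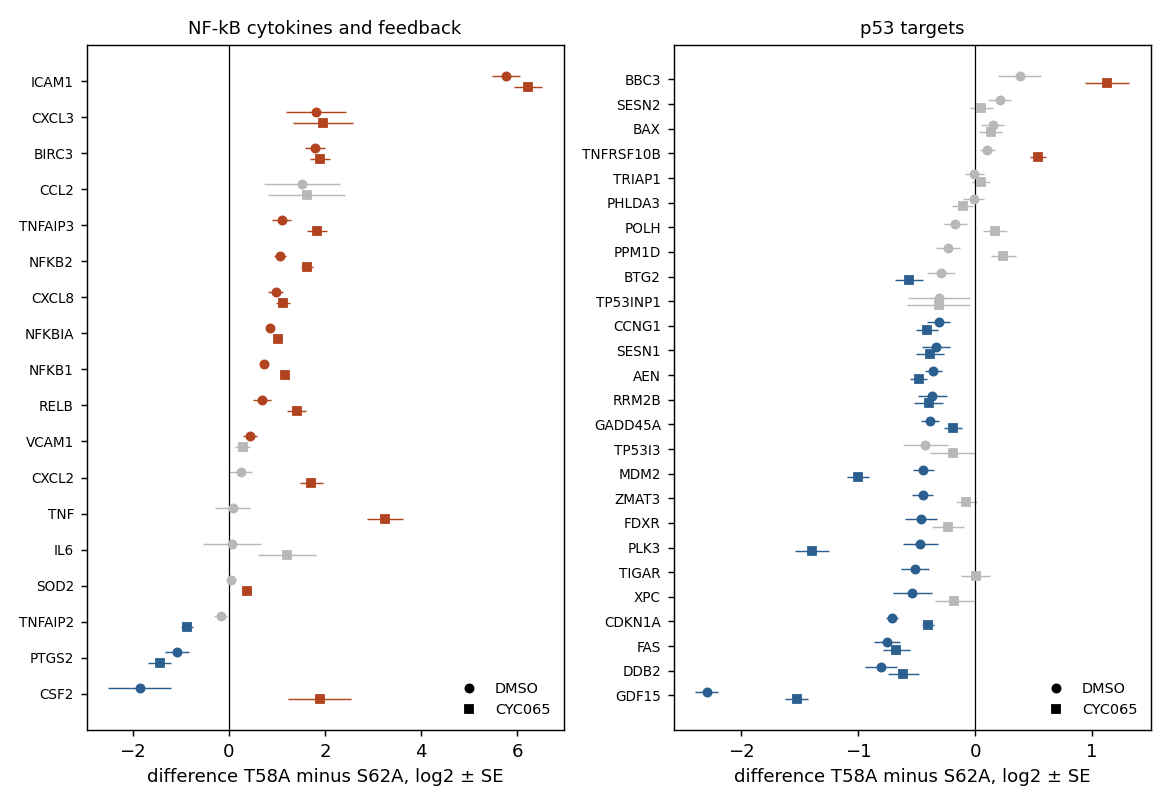
Log2 difference, T58A minus S62A, with its standard error for every tested member of the NF-kB list (left, 18 genes) and the p53 target list (right, 26 genes), in DMSO (circles) and in CYC065 (squares), on FPKM as deposited; red is higher in T58A, blue lower and grey not past the threshold. ICAM1 (5.76 in DMSO) and GDF15 (-2.30) are the extremes, and the p53 target list's median of -0.36 becomes 0.62 with spike-in scaling.

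Interferon-stimulated and MHC class I genes counted 20 higher and 2 lower in T58A of 42 tested, with a median of 0.35. HLA-B, an antigen-presenting class I chain, was at 1.80, 1.65 and 2.05 FPKM in T58A and at 0.417, 0 and 0.0783 in S62A (log2 3.20). HLA genes are polymorphic and share sequence, so the assignment of reads to HLA-B is uncertain. B2M, the shared light chain of class I molecules and also singled out, was at 475 ± 16.2 and 492 ± 44.8 FPKM (log2 -0.05, not past the threshold, and 0.95 with spike-in scaling). IFI44L, an interferon-induced gene, differed by 1.73, and PSMB9, an immunoproteasome subunit, by 1.16.

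The matrix and mesenchymal genes split rather than moving together. Of 18 collagen chains tested, 12 were higher in T58A and 2 lower, with a median of 0.61. COL16A1 was at 4.24, 5.29 and 4.43 FPKM in T58A and at 0.576, 0.430 and 0.636 in S62A (log2 2.88), COL6A2 differed by 1.42 and COL8A1 by 1.24. COL1A1, the main fibrillar collagen, was at 174 ± 13.5 and 198 ± 3.09 FPKM, a difference of -0.19 that was not past the threshold and became 0.81 with spike-in scaling. Of 39 mesenchymal markers tested, 13 were higher and 16 lower, with a median of -0.15, or 0.85 with spike-in scaling. BGN, the proteoglycan biglycan, was at 156, 175 and 165 FPKM in T58A and at 19.7, 20.0 and 19.6 in S62A (log2 3.05). TAGLN, a smooth muscle actin-binding protein, and THBS2, a matricellular thrombospondin, differed by 2.09 and 1.76. In the other direction stood POSTN, MMP14, a membrane-bound collagenase (log2 -1.11), and TIMP2, its inhibitor and cofactor (log2 -1.01). With spike-in scaling the calls of MMP14 (-0.11, limma adjusted p = 0.596) and TIMP2 (-0.0067, limma adjusted p = 0.984) ended. ITGA3, a laminin-binding integrin, was at 85.9 ± 1.05 against 188 ± 3.37 FPKM (log2 -1.13, and -0.13 with spike-in scaling, where it did not pass), on a list of 18 integrins and laminins with 6 higher and 6 lower.

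The identity factors of neuroblastoma were divided too. Of 27 mesenchymal transcription factors tested, 8 were higher in T58A, PRRX1 (log2 0.66) and ZEB2 (log2 0.70) among them, and 6 lower. Of the 6 lower, ZNF217 differed by -0.63 as deposited and 0.37 with spike-in scaling, where it did not pass. Of 21 adrenergic factors listed, 8 were tested, with 3 higher and 1 lower. HAND2, a basic helix-loop-helix factor of sympathetic cells, was at 89.3, 84.1 and 80.0 FPKM in T58A and at 48.3, 45.8 and 44.1 in S62A (log2 0.87). GATA3, a zinc finger factor of the same lineage, had the opposite order, at 2.82, 4.38 and 4.37 against 9.45, 8.89 and 9.45 FPKM (log2 -1.27, and -0.29 with spike-in scaling, where it did not pass). Of 12 adrenergic and neuronal markers tested, 5 were higher and 3 lower, with MAB21L2 at one end (log2 3.20) and SCG2 at the other. Of 17 tested HOX genes, which set position along the body axis, 4 were higher, HOXD13 by 2.15, and 3 lower, HOXA5 by -1.46, or -0.48 with spike-in scaling, where it did not pass.

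Genes of the MYC pathway lay on both sides. In the MYC network, 5 of 11 tested members were higher in T58A and 2 lower. The introduced MYCN itself is counted among the higher and MYC among the lower. MXI1, a MAX partner that represses, was at 6.15 ± 0.366 and 2.95 ± 0.401 FPKM (log2 1.04), while MXD1, another repressive MAX partner, differed by -1.14, or by -0.21 with spike-in scaling, where it did not pass. Of 28 genes of MYCN phosphorylation and turnover, 8 were higher and 6 lower. FBXW7 was at 4.26 ± 0.783 and 3.53 ± 0.493 FPKM, a difference of 0.26 that was not past the threshold, though without the T58A library at 3.45 FPKM it was 0.40 (limma adjusted p = 0.0281). GSK3B was at 8.27 ± 0.783 and 9.62 ± 0.394 FPKM (log2 -0.22, not past the threshold, and 0.77 with spike-in scaling). AURKA, the mitotic kinase that shields MYCN from FBXW7, was at 76.3, 80.9 and 81.3 FPKM in T58A and at 139, 135 and 134 in S62A. The AURKA difference was -0.77 (SE 0.0755, limma adjusted p = 2.29e-08) as deposited and 0.23 with spike-in scaling, where it did not pass. PLK1, a mitotic kinase that acts on FBXW7, differed by -0.61, or by 0.39 with spike-in scaling, where it did not pass. TRIM32, a ubiquitin ligase, differed by 0.61.

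Ribosome biogenesis, the classic output of MYC proteins, counted 10 members higher in T58A and 5 lower of 42, with a median of 0.06. RRP12, a factor of ribosome export, was at 46.6 ± 2.21 FPKM in T58A and at 29.7 ± 1.39 in S62A (log2 0.65), and MYBBP1A, a nucleolar regulator, differed by 0.43. NPM1, the abundant nucleolar chaperone nucleophosmin, was at 1730 ± 159 and 1710 ± 90.0 FPKM (log2 0.01). LYAR and DDX21, both nucleolar, differed by -0.40 and -0.38, and by 0.60 and 0.62 with spike-in scaling. The E-box CACGTG, which reads the same on both strands, is shown in capitals in the 250 bases before the start of 2 members, from RefSeq on GRCh38.p14, at chr11:34105379-34105628 on the plus strand for NAT10, an RNA cytidine acetyltransferase, and chr14:24188817-24189066 on the minus strand for IPO4, an importin.
NAT10: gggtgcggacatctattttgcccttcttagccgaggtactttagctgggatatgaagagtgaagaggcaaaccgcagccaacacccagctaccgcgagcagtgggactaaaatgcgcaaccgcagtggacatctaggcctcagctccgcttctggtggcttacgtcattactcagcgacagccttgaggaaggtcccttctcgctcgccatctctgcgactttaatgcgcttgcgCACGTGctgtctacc
IPO4: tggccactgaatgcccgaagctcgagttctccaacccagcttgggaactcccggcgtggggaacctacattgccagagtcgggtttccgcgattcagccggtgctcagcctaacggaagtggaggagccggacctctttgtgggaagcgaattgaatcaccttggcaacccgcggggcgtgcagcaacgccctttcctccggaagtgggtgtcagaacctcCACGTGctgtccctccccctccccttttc

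Both genes were singled out after their values were seen, for a site in these bases and ranges that did not overlap. NAT10 was at 41.6 ± 2.40 FPKM in T58A and at 34.2 ± 0.174 in S62A (log2 0.28). IPO4 was at 52.2, 60.9 and 55.7 against 45.3, 49.5 and 48.9 FPKM (log2 0.23), a call that ended when the T58A library at 60.9 or the S62A library at 45.3 FPKM was left out (0.17 and 0.19). The E-box was present in the windows of 12 of the 25 ribosome biogenesis genes that had a single window (48%), 5 of them higher in T58A and 0 lower. Over all genes with a window the share was 11%, with 13.6% among genes higher in T58A, 8.5% among genes lower and 10.9% among those not past the threshold. Cytosolic ribosomal proteins counted 13 higher and 7 lower of 82. Their 2 largest negative differences were those of RPS27L, a ribosomal protein paralogue that p53 induces (log2 -0.72), and RPS21 (log2 -0.55). With spike-in scaling RPS27L was at 0.27, where it did not pass, and RPS21 at 0.45. The synthesis of nucleotides, one-carbon units and polyamines was divided, with 6 higher and 8 lower of 27, MTHFD2 of the mitochondrial folate pathway at 0.41 and the cytosolic SHMT1 at -0.40, or 0.59 with spike-in scaling.

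Lipid and amino acid lists held more members higher than lower in T58A. Of 25 cholesterol and fatty acid synthesis genes tested, 15 were higher and 1 lower, with a median of 0.40. SCD, the stearoyl-CoA desaturase, was at 130, 136 and 139 FPKM in T58A and at 67.6, 71.0 and 70.3 in S62A (log2 0.95, SE 0.0492). FDPS, farnesyl diphosphate synthase, and SREBF1, the lipogenic transcription factor, differed by 0.82 and 0.69. The member lower in T58A was IDI1, an isomerase of the pathway (log2 -0.28, and 0.71 with spike-in scaling). Of 20 tested genes of the ATF4 response, the amino acid stress programme, 10 were higher and 2 lower, with a median of 0.33. ATF4, singled out as the name of its list, was at 171, 165 and 175 FPKM in T58A and at 102, 107 and 116 in S62A (log2 0.66), and its targets CHAC1, a glutathione-degrading enzyme, and PSAT1, of serine synthesis, differed by 1.70 and 0.77. ATF3, a stress-induced factor on the same list, differed by -0.51, or by 0.47 with spike-in scaling. Respiratory chain subunits counted 21 higher and 6 lower of 75, translation factors and aminoacyl-tRNA synthetases 10 and 3 of 37, and glycolysis and hypoxia genes 5 and 4 of 31.

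Cell cycle lists leaned in different directions on the deposited scale. Of 30 DNA replication genes, 1 was higher in T58A (GINS3 of the replicative helicase, log2 0.50) and 11 lower, with a median of -0.13, or 0.87 with spike-in scaling. ORC1, of the origin recognition complex, was at 12.3, 13.1 and 11.2 FPKM in T58A and at 20.4, 18.8 and 19.5 in S62A. Its log2 difference was -0.68, and 0.32 with spike-in scaling, where it did not pass. CDC6, which loads the helicase, differed by -0.51, or 0.49 with spike-in scaling. Of 28 mitosis genes, 11 were higher and 3 lower, AURKA (log2 -0.77) and PLK1 (log2 -0.61) among the lower. With spike-in scaling AURKA was at 0.23 and PLK1 at 0.39, where neither passed. KIF11, a spindle motor, CDC25B, a phosphatase that activates CDK1, and UBE2C, the ubiquitin-conjugating enzyme of the anaphase-promoting complex, differed by 0.45, 0.42 and 0.42. Among 19 G1/S regulators, 3 were higher, CDK4 by 0.30, and 4 lower, including CDKN1A and CDKN1B, the inhibitor p27 (log2 -0.58, and 0.41 with spike-in scaling). CCND1, cyclin D1, was at 84.8 ± 2.15 and 81.7 ± 1.39 FPKM and was not past the threshold. The BCL2 family counted 4 higher and 0 lower of 11 tested, and the 7 others were not past the threshold.

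Signalling genes had members on both sides. Of 21 ERK feedback and output genes tested, 6 were higher in T58A and 9 lower, with a median of -0.19, or 0.80 with spike-in scaling. SPRY2, an inhibitor of receptor tyrosine kinase signalling, was at 23.9 ± 1.00 FPKM in T58A and at 9.18 ± 1.21 in S62A (log2 1.38). DUSP4, LIF and PHLDA1 stood on the other side. LIF, a cytokine of the IL-6 family, differed by -1.11, and by -0.13 with spike-in scaling. PHLDA1, a growth factor-induced protein, differed by -0.82, and by 0.18 with spike-in scaling. Neither LIF nor PHLDA1 passed after that scaling. AP-1 and immediate early genes counted 5 higher and 8 lower of 20, with a median of -0.22, or 0.77 with spike-in scaling. IER3, an early response gene that NF-kB also induces, was at 6.70, 6.00 and 5.51 against 1.57, 0.263 and 1.03 FPKM (log2 2.80), and EGR1, an immediate early zinc finger factor, was at 39.5 ± 0.482 against 56.2 ± 3.32 FPKM (log2 -0.50, and 0.49 with spike-in scaling). Of 23 YAP/TEAD and TGF-beta genes, 3 were higher and 10 lower, with a median of -0.14, or 0.86 with spike-in scaling. SKIL, a SMAD corepressor, was at 7.80 ± 0.322 FPKM in T58A and at 15.4 ± 0.937 in S62A (log2 -0.97). With spike-in scaling SKIL was at 0.02, where it did not pass.

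The imprinted neighbours IGF2, a fetal growth factor, and H19, a long noncoding RNA, were both higher in T58A. IGF2 was at 17.9, 19.1 and 18.4 FPKM in T58A and at 3.99, 4.54 and 3.96 in S62A, a log2 difference of 2.12. H19 was at 987, 1009 and 956 FPKM in T58A and at 283, 281 and 302 in S62A, a log2 difference of 1.77. PHLDA2, an imprinted gene further along chromosome 11, differed by 1.18. The T58A and S62A ranges did not overlap for any of the 3, and parental SH-EP stood at 1.02 FPKM for IGF2, 5.65 for H19 and 52.3 for PHLDA2. The WT line held 13.2, 15.1 and 12.5 FPKM of IGF2 and 1032, 1251 and 1040 of H19. The double mutant held 9.01, 7.56 and 7.12 FPKM of IGF2 and 650, 542 and 653 of H19. S62A was thus the lowest of the MYCN lines for IGF2 and H19, and T58A was not the highest for H19. In all, 5 of 12 tested imprinted and oncofetal genes were higher and 2 lower. Among 26 receptor tyrosine kinases and ligands, 7 were higher, with FGFR3 at 1.26, and 4 lower. Of the lower, the insulin receptor INSR was at -0.92 and the IGF2-binding IGF1R at -0.77. They became 0.02 and 0.19 with spike-in scaling, where neither passed. JAG2, a NOTCH ligand, was at 5.60 to 5.82 against 1.49 to 1.51 FPKM (log2 1.86), and the NOTCH list counted 3 higher and 0 lower of 10. Heat shock and chaperone genes counted 4 higher and 14 lower of 27, with a median of -0.21, or 0.79 with spike-in scaling. HSP90B1, an HSP90 chaperone of the endoplasmic reticulum, differed by -0.54 and DNAJB9, a J-domain cofactor of HSP70 there, by -0.72. With spike-in scaling they were at 0.46 and 0.26, where DNAJB9 did not pass. CCT3, a subunit of the cytosolic chaperonin, differed by 0.49.

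**Figure D4:**
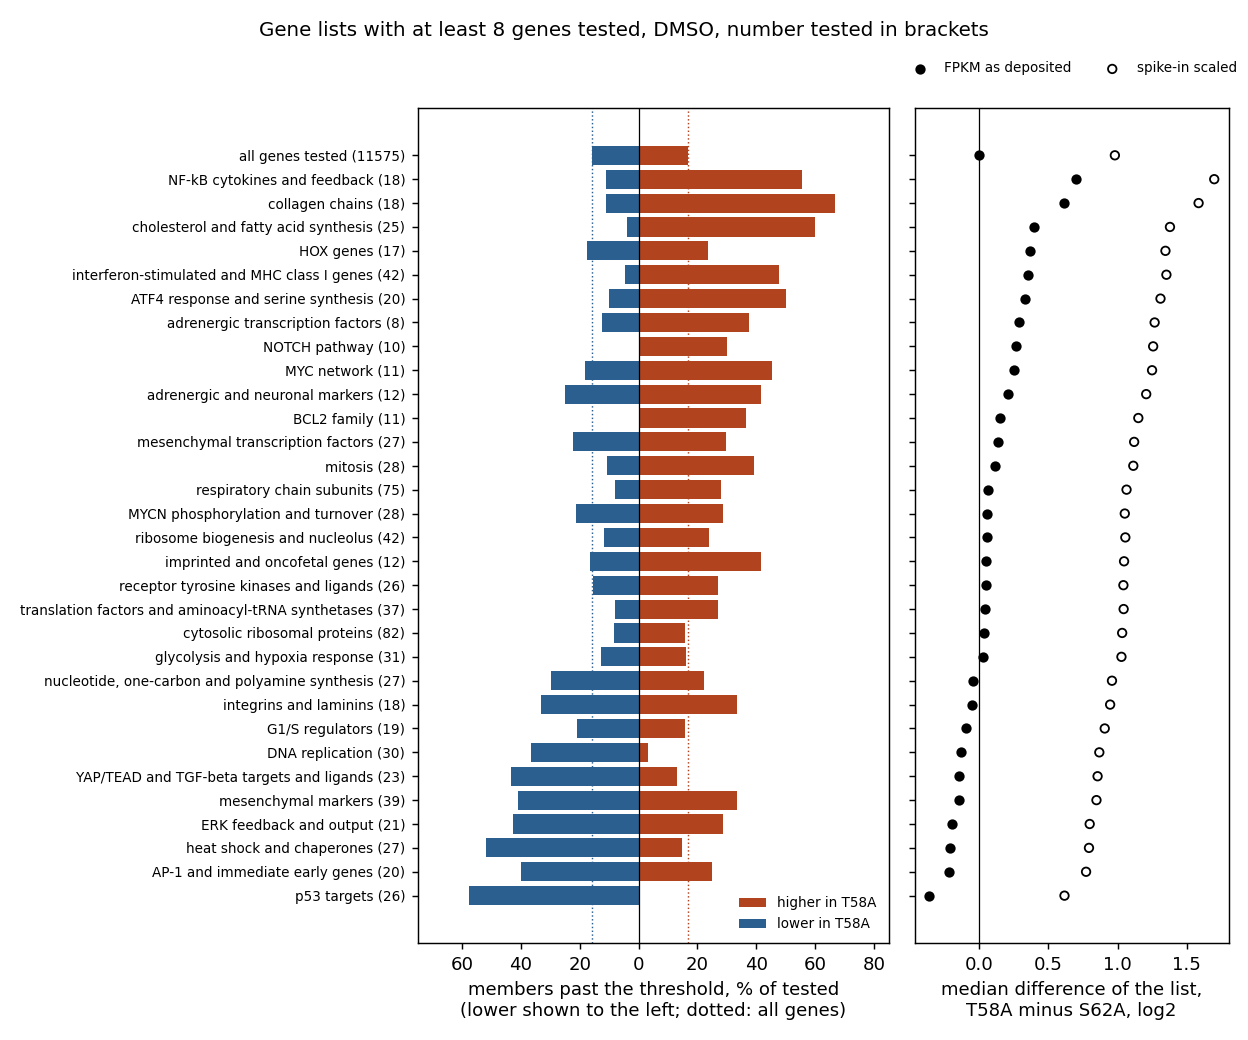
For each gene list with at least 8 genes tested, the share of members past the threshold (left, higher in T58A in red to the right, lower in blue to the left, with dotted lines at the 16.9% and 16.0% of all genes) and the median log2 difference (right, filled for FPKM as deposited, open after spike-in scaling). The NF-kB list has the highest median (0.70) and the p53 target list the lowest (-0.36), and every open median is above 0.

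The WT and double mutant lines show where the mutant levels lay, as a description. For the 3802 genes past the threshold, the WT mean lay between the 2 mutant means for 2556 (67.2%) and was nearer to T58A for 50.9%. The mean of the double mutant lay between them for 2391 (62.9%) and was nearer to T58A for 2576 (67.8%) and nearer to S62A for 1226. That of parental SH-EP lay between them for 642 of the 1954 genes higher in T58A (32.9%) and 628 of the 1848 lower (34%). The genes were chosen for a difference between the same 2 means, which favours a position between them. For ICAM1 the WT line held 1.20 FPKM and the double mutant 0.829, both below the 8.38 ± 0.869 of T58A. For GDF15 the WT line held 32.9 and the double mutant 52.7 FPKM, between 18.7 and 92.5. For LCP1 the double mutant was the highest line, at 80.0 FPKM, against 12.6 in T58A, 0.908 in S62A and 0.0397 in WT.

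The libraries of the same lines under CYC065 gave a second, separate set of samples for the contrast. There, on FPKM as deposited, 5799 of 11575 genes passed the threshold (50.1%), 2846 higher in T58A and 2953 lower. Of the 3802 genes past it in DMSO, 3516 (92.5%) had the same sign under CYC065, 2850 (75%) had the same direction and passed, and 66 passed in the opposite direction. The 2850 genes were 49.1% of those past the threshold under CYC065. The 2 calls of a gene used the same pooled spread and were in that respect not independent. In fits over the groups compared only, 2204 genes passed in the same direction in both treatments. Over all genes tested, Pearson's r between the differences was 0.488 and Spearman's rho 0.645, a description across genes that share libraries and are not independent. ICAM1 was at 11.2 against 0.0601 FPKM under CYC065 (log2 6.22), CGA at 2.83 against 290 FPKM (log2 -7.12), and GDF15 at 242 against 697 FPKM (log2 -1.53). MYCN differed by 0.74 and MYC by -1.50, at 4.40 against 12.6 FPKM. The 2 treatments share each line, so agreement between them cannot tell the substitution from the line.

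**Figure D5:**
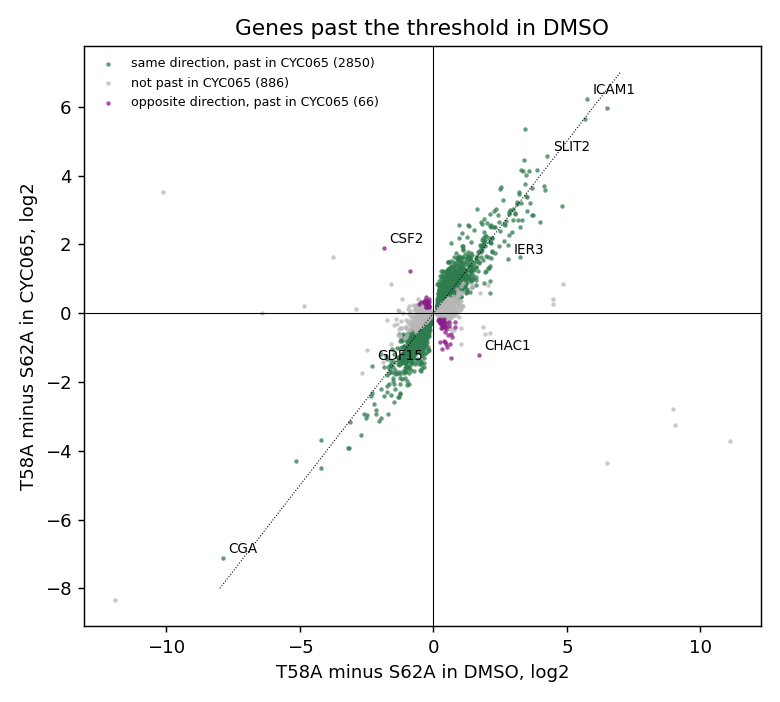
Log2 difference, T58A minus S62A, in DMSO (horizontal) and in CYC065 (vertical) for the 3802 genes past the threshold in DMSO, on FPKM as deposited; green genes passed in the same direction under CYC065 (2850), grey did not pass and purple passed in the opposite direction (66). The dotted line marks equal differences, and CHAC1 and CSF2 lie off it in opposite corners.

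The size of the T58A against S62A difference depended on treatment for some genes. A test of that dependence, the difference under CYC065 minus the difference in DMSO, passed for 1264 of 11575 genes (10.9%), 597 with a positive and 667 with a negative value, and for 10 genes with spike-in scaling. CHAC1 changed sign. It was at 8.15 ± 0.893 against 2.47 ± 0.567 FPKM in DMSO and at 0.853 against 2.07 FPKM under CYC065, a change of -2.92 (limma adjusted p = 8.98e-07). The ATF4 list as a whole had a median of 0.33 in DMSO and -0.18 under CYC065, where 4 of 20 were higher and 9 lower. The NF-kB list went from a median of 0.70 to 1.51, with 13 of 18 higher and 2 lower. These levels and medians are of FPKM as deposited, and scaled values under CYC065 are not given here. With spike-in scaling 10241 genes passed under CYC065, and 9707 passed in the same direction in both treatments.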

How the data were processed

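The authors sequenced poly(A) RNA with spike-ins added by cell number, aligned reads to hg19/GRCh37 with HISAT2, and deposited 1 table of FPKM from Cufflinks, not scaled to the spike-ins. The annotation is not given in the sources used here. Columns matched groups by name. Values were taken as log2(FPKM + 0.1), so low genes' differences are understated. Genes averaging at least 1 FPKM over 30 libraries (11575) entered 1 limma fit (version 3.58.1, R 4.3.3) over 10 groups, with a mean-variance trend and Benjamini-Hochberg adjustment at 0.05. On simulated data, 48 of 100 changes of 0.5 on the log2 scale and 84 of 100 of 1 were recovered. Only 6 unchanged genes were called there. Small differences could therefore be missed. Named genes were MYCN, MYC, the 12 largest differences each way among genes past the threshold (at least 5 FPKM in the higher group, ranges apart, no small RNA or LOC symbols), up to 3 members per direction of each list, defining members that did not pass, and the 3 largest dependences on treatment each way. Comparison, lists and members were chosen with earlier results of these data known. Gene positions used GENCODE on GRCh37 (23432 of 26228 symbols). Motifs were searched from 250 bases before to 50 after the start, in 6502 genes with a single RefSeq window. Some genes are not reported here.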

Additional observations from a re-analysis of the deposited data

Results flagged for a closer look

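The T58A against S62A difference differed between CYC065 and DMSO for 1264 genes by the test of that difference in limma, and for 10 with spike-in scaling. The largest positive values as deposited were those of CSF2 (3.74 on the log2 scale), TNF (3.16) and EGLN2 (2.43). The largest negative ones were those of CHAC1 (-2.92), NR1D1 (-1.74) and TRAPPC2B (-1.72). Whether these genes are among the 10 is not given here. TNF, an inflammatory cytokine, was at 0.0581 FPKM in T58A and 0.0494 in S62A in DMSO and at 6.87 and 0.678 under CYC065. EGLN2, an oxygen-sensing prolyl hydroxylase, was at 24.3 and 21.1 FPKM in DMSO and at 9.65 ± 1.94 and 2.08 ± 2.09 under CYC065. Its S62A libraries under CYC065 were thus widely spread. NR1D1, the circadian repressor REV-ERB-alpha, was at 4.15 and 3.53 FPKM in DMSO and at 2.26 and 6.63 under CYC065. TRAPPC2B, a near-identical copy of TRAPPC2 and so uncertain, was at 8.64 and 8.65 FPKM in DMSO and at 2.18 ± 1.22 and 6.99 ± 2.25 under CYC065. CSF2 was at 0.0811 and 0.545 FPKM in DMSO and at 10.7 and 3.01 under CYC065.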

How the results depend on the processing

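The result most exposed to processing was the direction of small differences, because scaling to the spike-ins moved the median gene by 0.98. With it 10228 genes passed in DMSO (10177 higher in T58A, 51 lower), 10241 under CYC065, 9707 in the same direction in both, 10 for the dependence on treatment (839 in a fit over the groups compared only), and 750 distinct list members against 388. Of 117 named genes, 29 changed sign with it, 24 of them past the threshold as deposited and 15 past it after scaling. The rest of the 29, among them AURKA, PLK1, DDB2, FAS, CDKN1A, ZNF217, RPS27L and ORC1, did not pass after scaling. SKIL, INSR, IGF1R, PHLDA1, DNAJB9 and CD68 did not pass either. A further 9 lost their call without changing sign (MXD1, PTGS2, CSF2, MMP14, TIMP2, GATA3, ITGA3, HOXA5 and LIF). Leaving out a library changed the sign of 5 genes that had not passed (B2M, NPM1, TNF, TRAPPC2B and TUBA1B) and of 0 that had, median centring that of TUBA1B, and pseudocounts of 1 or 0.01 and the fit over the groups compared that of 0. The scaled values of the 29 were 0.77 for GSK3B, 0.23 for AURKA, 0.39 for PLK1, 0.19 for DDB2, 0.24 for FAS, 0.29 for CDKN1A, 0.95 for B2M, 0.81 for COL1A1, 0.37 for ZNF217, 0.017 for SKIL, 0.71 for IDI1, 0.47 for ATF3, 0.60 for LYAR, 0.62 for DDX21, 0.27 for RPS27L, 0.45 for RPS21, 0.59 for SHMT1, 0.32 for ORC1, 0.49 for CDC6, 0.41 for CDKN1B, 0.26 for DNAJB9, 0.46 for HSP90B1, 0.020 for INSR, 0.19 for IGF1R, 0.49 for EGR1, 0.18 for PHLDA1, 0.96 for TRAPPC2B, 0.035 for CD68 and 0.96 for VIM. Requiring a 1.5-fold change left 1200 genes (741 higher, 459 lower). The spike-in difference itself was 1.34 with spike-ins of at least 50 FPKM and 0.88 to 1.23 with each library left out, both chosen after seeing the data. The DMSO count was 3114 to 3969 under other pseudocounts, filters and fits and 3123 to 3335 with each library left out, and MYCN was then 0.45 to 0.67. The cause of these shifts was not tested. No paired analysis was possible because the columns of the table do not carry the replicate numbers of the labels. Depth was not given, so values near 0 have no counting interval.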
